A study of Mus musculus with 14 samples.

Results

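The genes of the elastic fibre and of the microfibrils that carry it were followed in wounded mouse fibroblasts with and without autologous micrograft (AMG). The 10 genes were Eln, Fbn1, Fbn2, Fbln1, Fbln2, Fbln5, Mfap2, Mfap4, Mfap5 and Emilin1, chosen by symbol from the 43472 genes listed in both normalised count tables. All 10 were found, and 9 of them passed the filter on low values (a mean normalised count of at least 10) in each table. In the build of the files (GRCm38) Eln lies on the minus strand at chr5:134702593-134747323, Fbn1 on the minus strand at chr2:125300594-125507993 and Emilin1 on the plus strand at chr5:30913402-30921277. The counts cover whole genes, with no split into exons or UTRs.

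Elastic fibres give skin, vessels and lung their recoil. Fibroblasts secrete fibrillins, which assemble into microfibrils. Tropoelastin, the product of Eln, is deposited on them and is crosslinked by lysyl oxidases into elastin, while fibulins, microfibril-associated proteins and emilins bind to and organise the growing fibre. Most elastin is laid down in early life, and adult wounds are known to restore it slowly.

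Primary fibroblasts were isolated from the tail tips of C57BL/6 mice, grown in medium with serum and scratched with a pipette tip. The Untreated group received no extract. The AMG-treated group received AMG, the soluble fraction of minced and filtered mouse skin, diluted in growth medium. Both groups were wounded, so that the comparison concerns the extract and not the wound. Replicate 1 was collected at 1, 5, 12 and 24 h, with 1 library per treatment and time. Replicates 2, 3 and 4 were collected at 5 h only, with 3 Untreated and 3 AMG-treated libraries. The age of the mice is not given in the sources used here. The replicates are described as biological, but the labels do not say which animal or extract each one came from. The p-values below therefore measure the spread between these libraries, whatever its source.

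Depth ran from 12545537 to 34696529 counted reads over the 14 libraries, and 0.277% to 0.615% of a library's reads fell on the 10 genes. All 9 fibroblast markers were expressed at a mean normalised count of at least 10 in both tables. Of the lists for other cell types, Krt1 (keratinocytes), Cd3e (leukocytes) and Cidec and Lep (adipocytes) were at 0 in all libraries, but other markers of the same lists were not. Normalised counts reached 156 for Krt10, 1541 for Lyz2, 101 for Cd68 and 2067 for Fabp4. Those of Acta2 and Cnn1 (smooth muscle) reached 161732 and 22879, of Col2a1 (chondrocytes) 21940 and of Acta1 (skeletal muscle) 7289. At 5 h in replicates 2 to 4 the 5 smooth muscle markers summed to 167419 to 183022 untreated and 152939 to 181330 treated. The summed normalised counts of 5 chondrocyte markers varied most between libraries, from 764 to 25902 at 5 h in replicates 2 to 4. The part of other cell types in the results was not tested. In a bulk sample fewer cells of a type and less RNA per cell cannot be told apart.

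The promoter windows of genes on which the 5 h results turn are shown because the study that re-used these data asks about the transcription factor AP-1. RefSeq windows (build GRCm38.p6, 250 bases before to 50 after a start site) were found for Fbn1, Fbln1, Fbln2, Fbln5, Mfap2 and Emilin1, which is 6 of the 10 genes with 9 windows. The 3 sequences below are given 5′ to 3′ on the strand of the gene, with each GC box (GGGCGG on either strand) in capitals. Fbn1 lies on the minus strand at chr2:125506389-125506688, Fbln2 on the plus strand at chr6:91212514-91212813 and Emilin1 on the plus strand at chr5:30913536-30913835.
Fbn1: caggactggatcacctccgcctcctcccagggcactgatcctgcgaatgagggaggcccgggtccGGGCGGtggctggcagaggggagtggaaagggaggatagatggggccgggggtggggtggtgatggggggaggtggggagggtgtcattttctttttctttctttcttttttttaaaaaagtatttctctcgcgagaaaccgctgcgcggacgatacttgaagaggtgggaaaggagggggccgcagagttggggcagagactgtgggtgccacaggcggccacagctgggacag
Fbln2: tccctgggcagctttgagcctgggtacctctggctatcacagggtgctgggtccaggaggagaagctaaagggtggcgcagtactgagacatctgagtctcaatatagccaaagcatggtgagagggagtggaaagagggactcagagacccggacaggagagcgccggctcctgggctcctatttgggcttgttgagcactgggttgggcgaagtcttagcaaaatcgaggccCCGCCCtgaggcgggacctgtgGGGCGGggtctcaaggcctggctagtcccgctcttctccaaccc
Emilin1: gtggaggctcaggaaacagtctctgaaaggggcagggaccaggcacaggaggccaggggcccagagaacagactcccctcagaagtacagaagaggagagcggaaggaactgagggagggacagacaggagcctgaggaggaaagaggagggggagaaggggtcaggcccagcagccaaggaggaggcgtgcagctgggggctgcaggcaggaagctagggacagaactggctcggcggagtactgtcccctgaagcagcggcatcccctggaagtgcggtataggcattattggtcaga
The AP-1 motif TGANTCA was in 0 of the 9 windows and in 7.81% of 32851 windows of all genes. The TATA box TATAAA was likewise in 0 of the 9 windows, against 13.6% of all windows. The Fbn1 window had 1 GC box, starting at base -185 from the start site. The Fbln2 window had 2, at -16 on the opposite strand and at 7, and the Emilin1 window had 0, where 35.7% of all windows held at least 1. E-boxes (CANNTG), which were in 72.3% of all windows, numbered 1 in each of the 3 windows shown, at 39 for Fbn1, -161 for Fbln2 and -59 for Emilin1. Both strands were searched, and no motif searched contains another one. These matches describe the letters of the windows and do not show binding.

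The levels of the 10 genes were first compared with each other in the untreated cells at 5 h. They are given as normalised counts per kilobase of the longest annotated transcript (mean ± SD, n = 3). Fbln2, which encodes fibulin-2, a protein that joins fibrillin to elastin, stood at 10454 ± 1286. Fbn1, encoding fibrillin-1, the main microfibril protein of adult tissue, followed with 1811 ± 756. The range of Fbln2 over the 3 libraries lay above that of Fbn1.

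Mfap5 (1250 ± 517), Fbln5 (1154 ± 260) and Emilin1 (1108 ± 297) came next, and their ranges overlapped one another and that of Fbn1. Below a gap came Mfap2 with 306 ± 131 and Fbln1 with 180 ± 66.4, whose ranges also overlapped. Fbn2, encoding fibrillin-2, the fibrillin of developing tissue, had 33.4 ± 20.96, and Eln 20.6 ± 19.9, with overlapping ranges. Mfap4 was lowest with 2.02 ± 1.97. The fibroblasts thus held far more transcript for the microfibril scaffold and fibulin-2 than for elastin itself. With total exonic length in place of transcript length Fbln2 stood at 7855, still the highest, and Fbln5 and Mfap5 exchanged places.

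The effect of AMG at 5 h was tested in replicates 2 to 4 with limma on log2(normalised count + 1). No member was called at a Benjamini-Hochberg adjusted p under 0.05, and 0 had an unadjusted p under 0.05. Over all 13096 genes tested, 0.97% were called higher and 0.267% lower, and 3021 had an unadjusted p under 0.05. The same 0 members were called with DESeq2 and with edgeR without the replicate number. Over all genes DESeq2 called 861 higher and 579 lower, and edgeR 98 and 25. The 3 treated and 3 untreated values overlapped for all 9 members tested, where 28.7% of all genes tested did not overlap.

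The replicates differed from one another more than the treatments did for most members, and the untreated libraries spanned from 1.28-fold for Fbln2 to 7.95-fold for Eln. The treated and untreated libraries of the same replicate number deviated together (r = 0.65, 0.76 and 0.70 across genes), so that the numbers paired the libraries. With the replicate number as a block, 5 members were lower (Fbn1, Fbn2, Fbln1, Fbln2 and Fbln5) and 1 was higher (Emilin1) with AMG. In this fit 19.3% of all genes were called lower and 17.9% higher. The median log2 fold change of the 9 members was -0.33, beside -0.02 over all genes tested. The plot of the members at 5 h gives the values behind these calls.

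**Figure D1:**
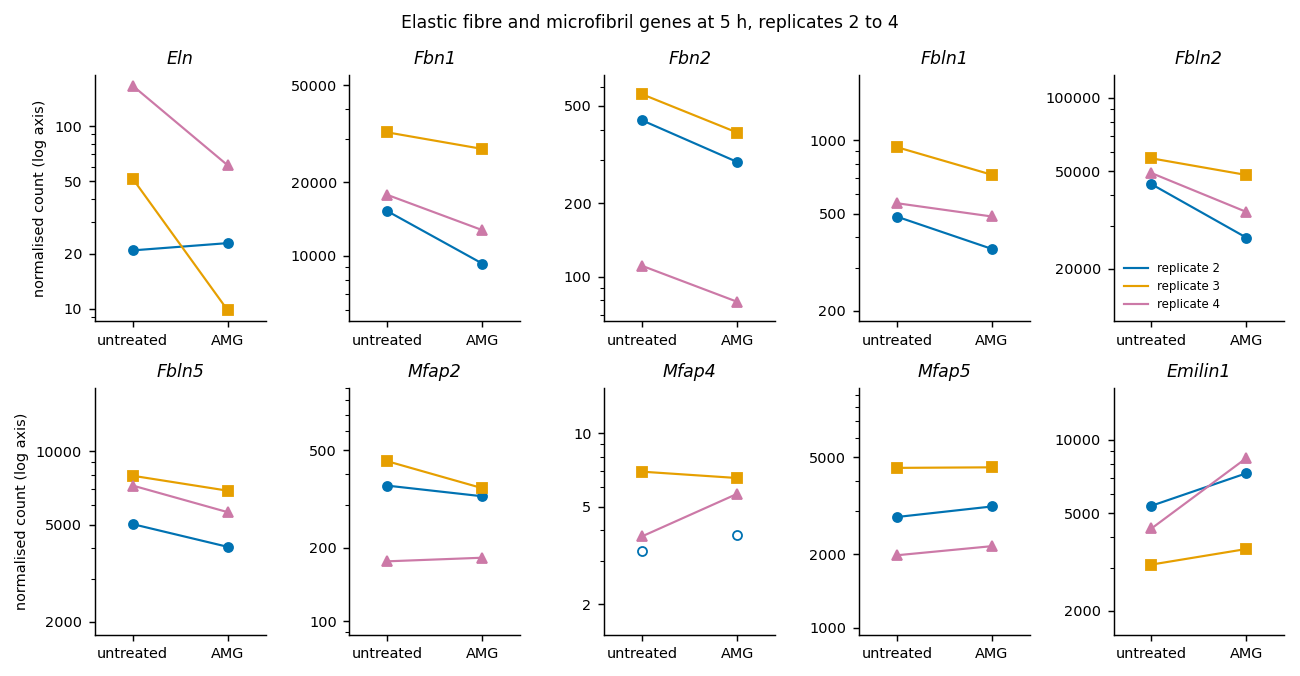
Normalised counts (log axis) of the 10 genes in untreated and AMG-treated cells at 5 h, with a line joining the libraries of the same replicate number. The lines of Fbn1, Fbn2, Fbln1, Fbln2 and Fbln5 go down and those of Emilin1 go up in all 3 replicates, while the replicates lie further apart than the ends of most lines, and open symbols mark values of 0 drawn at the floor of 3 reads.

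Among the scaffold genes, Fbn1 had 15247, 32027 and 17772 normalised counts in untreated replicates 2, 3 and 4, and 9304, 27406 and 12751 in the treated ones. Each treated library was below its own untreated partner, but treated replicate 3 was above untreated replicates 2 and 4. Without the block the log2 fold change was -0.47 ± 0.45 (SE; limma, adjusted p = 0.551), and with it -0.47 ± 0.11 (adjusted p = 0.0103).

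Fbn2 had 437, 558 and 111 normalised counts untreated and 295, 389 and 79.1 treated. Replicate 4 was low in both treatments, and the highest untreated library stood 5.04-fold above the lowest. The log2 fold change was -0.52 (limma, adjusted p = 0.723), and -0.52 ± 0.14 with the block (adjusted p = 0.0169).

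Eln itself had 20.9, 51.5 and 166 normalised counts untreated and 22.9, 9.84 and 61.0 treated, from 12 to 307 reads. It was lower with AMG in replicates 3 and 4 and about level in replicate 2. The log2 fold change of -1.19 ± 0.89 was the most negative of the 9 members and did not pass the test (limma, adjusted p = 0.450, and 0.0527 with the block). With the block and without pair 2 it was -1.85 and was called (limma, adjusted p = 0.0187).

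The fibulins bind elastin and microfibrils and, in the case of fibulin-5, are needed for elastic fibre assembly. Fbln2 had 44321, 56554 and 49225 normalised counts untreated and 26788, 48348 and 34125 treated. All treated libraries were below their partners, and only treated replicate 3 overlapped the untreated range. The log2 fold change was -0.49 ± 0.25 (limma, adjusted p = 0.276), and ± 0.12 with the block (adjusted p = 0.0125).

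Fbln5 had 5025, 7926 and 7226 normalised counts untreated and 4057, 6886 and 5625 treated. The log2 fold change of -0.29 (limma, adjusted p = 0.509) was called with the block (adjusted p = 0.0266). Fbln5 and Fbln1 thus showed small differences that ran the same way in all 3 pairs. Fbln1 had 486, 936 and 552 untreated and 359, 721 and 487 treated, with a log2 fold change of -0.33 (limma, adjusted p = 0.578, and 0.0461 with the block).

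The microfibril-associated proteins decorate the fibrillin scaffold, and 0 of them were called with or without the block. Mfap2, encoding MAGP-1, had 359, 451 and 176 normalised counts untreated and 324, 350 and 182 treated, a log2 fold change of -0.15 (limma, adjusted p = 0.850). Mfap5, encoding MAGP-2, had 2842, 4516 and 1982 untreated and 3139, 4539 and 2160 treated, a log2 fold change of 0.09 (limma, adjusted p = 0.905). In both genes the treatments differed by less than the replicates did. Mfap4 was not tested, with 0 to 6.96 normalised counts and 0 to 8 reads in the 6 libraries.

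Emilin1 encodes a glycoprotein found where elastin meets the microfibrils, which is known to restrain TGF-beta processing. It was the member called higher with the block. It had 5377, 3090 and 4342 normalised counts untreated and 7304, 3578 and 8430 treated. All treated libraries were above their partners, and treated replicate 3 stood inside the untreated range. The log2 fold change was 0.54 ± 0.35 (limma, adjusted p = 0.392), and ± 0.13 with the block (adjusted p = 0.0121). It was higher in 24 of the 24 settings tried and was called in 5 of them.

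In all, 5 members were lower in each of the 3 pairs, as were 34.5% of all genes tested, and 2 (Emilin1 and Mfap5) were higher in each, as were 31.9% of all genes. The calls with the block also depended on the pairs used, among the members and over all genes tested. Without pair 2 only Eln was called, and without pair 4 only Fbn1 (adjusted p = 0.0388) and Fbn2. Without pair 3 the same 5 genes were lower and Emilin1 higher (limma with the block, adjusted p = 1.4e-05 for Fbn1 and 1.0e-05 for Emilin1). Over all 13096 genes 2345 were called higher and 2527 lower with all 3 pairs. These counts were 724 and 695 without pair 2, 1346 and 1328 without pair 4, and 3269 and 3531 without pair 3.

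Transcript length went with the ratios at 5 h, and it differed widely among the members. The log2 ratio of treated to untreated correlated with the length of the longest transcript across 12480 genes with Spearman's rho of -0.35, -0.22 and -0.42 in replicates 2, 3 and 4. In replicate 1 it was 0.47 at 5 h over 12862 genes. Genes are not independent replicates and share their libraries, so these are descriptions. Fbn1 and Fbn2 have transcripts of 11971 and 11041 bases, whereas that of Mfap2 has 1073.

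After a correction of every library for length, with the block, 2 members were lower and 1 was higher, where 15.9% and 18.2% of all genes were. Fbln2 stayed lower, with a log2 fold change of -0.34 (limma, adjusted p = 0.0237), and Emilin1 stayed higher with 0.61 (adjusted p = 0.00695). Mfap2 was called lower with -0.47 (adjusted p = 0.0177). The values of Fbn1 (-0.14, adjusted p = 0.272), Fbn2 (-0.19, adjusted p = 0.308), Fbln5 (-0.08, adjusted p = 0.450) and Fbln1 (-0.27, adjusted p = 0.0734) did not pass, nor did that of Eln (-1.12, adjusted p = 0.0698).

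Replicate 1 at 5 h is set beside the other 3 in the plot of ratios by replicate. The log2 ratio of Fbn1 was 0.97 in replicate 1 and -0.71, -0.22 and -0.48 in replicates 2, 3 and 4. That of Fbn2 was 0.90 and then -0.56, -0.52 and -0.48, while Fbln2 had 0.49 and then -0.73, -0.23 and -0.53. The first replicate thus went the other way for these 3 genes, and after the length correction its ratios were 0.15, 0.12 and 0.19.

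Emilin1 was higher in all 4 replicates, with log2 ratios of 1.34, 0.44, 0.21 and 0.96, and remained so after the correction (1.22, 0.54, 0.23 and 1.06). Fbln5 was lower in all 4, with -0.08, -0.31, -0.20 and -0.36. With all 4 replicates and the block in limma, Emilin1 had a log2 fold change of 0.74 (adjusted p = 0.113), or 0.76 after the length correction (adjusted p = 0.0325), and was then the only member called.

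**Figure D2:**
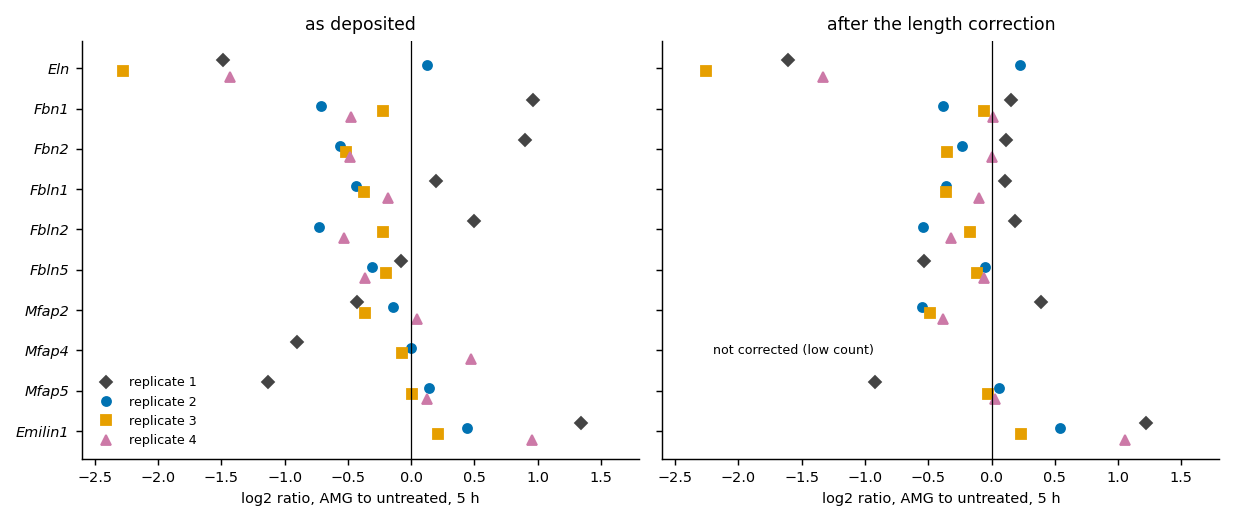
Log2 ratio of AMG-treated to untreated cells at 5 h for the 10 genes in each of the 4 replicates, as deposited (left) and after the length correction (right). Emilin1 lies above 0 in all 4 replicates in both panels, and the ratios of Fbn1 and Fbn2 in replicate 1 move from 0.97 and 0.90 to 0.15 and 0.12.

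The time course of replicate 1 had 1 library per treatment and time, so its differences have no replicate check and no p-value. A ratio is given with a 95% interval that covers counting error only, since the reads carry no molecular identifiers. A member was counted when its ratio on the log2(normalised count + 1) scale passed 1.5-fold.

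At 24 h all 9 members that passed the filter in this table had log2 ratios below 0, as had 6532 of all 13498 genes. Of these, 6 were lower by over 1.5-fold (Eln, Fbn1, Fbn2, Fbln1, Fbln2 and Fbln5) and 0 higher, where 15.3% of all 13498 genes were lower and 12.8% higher. At 12 h 5 members were lower (Eln, Fbn2, Fbln5, Mfap2 and Mfap5) and 0 higher, beside 13.6% and 11.8% of all genes. The counts were mixed earlier. At 1 h 3 were lower and 1 higher (25.1% and 22.6% of all genes), and at 5 h 2 were lower and 3 higher (25.4% and 25.6%).

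The median log2 ratio of the 9 members ran from -0.35 at 1 h over 0.19 and -0.64 to -0.85 at 24 h. Over all genes it was -0.06, -0.01, -0.01 and 0.02 at the 4 times in order. After the length correction 5 members were lower and 0 higher at 12 h, where 13.1% and 11.7% of 12862 genes were. At 24 h 7 were lower and 0 higher (15.3% and 11.7% of all genes), and the corrected medians at 12 and 24 h were -0.62 and -0.69. At 1 h the correction left 1 lower and 1 higher (18.9% and 17% of all genes), and at 5 h 2 lower and 1 higher (19.6% and 20.9%). With Eln set at its bound in place of its fitted ratio the 24 h median is still -0.85.

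**Figure D3:**
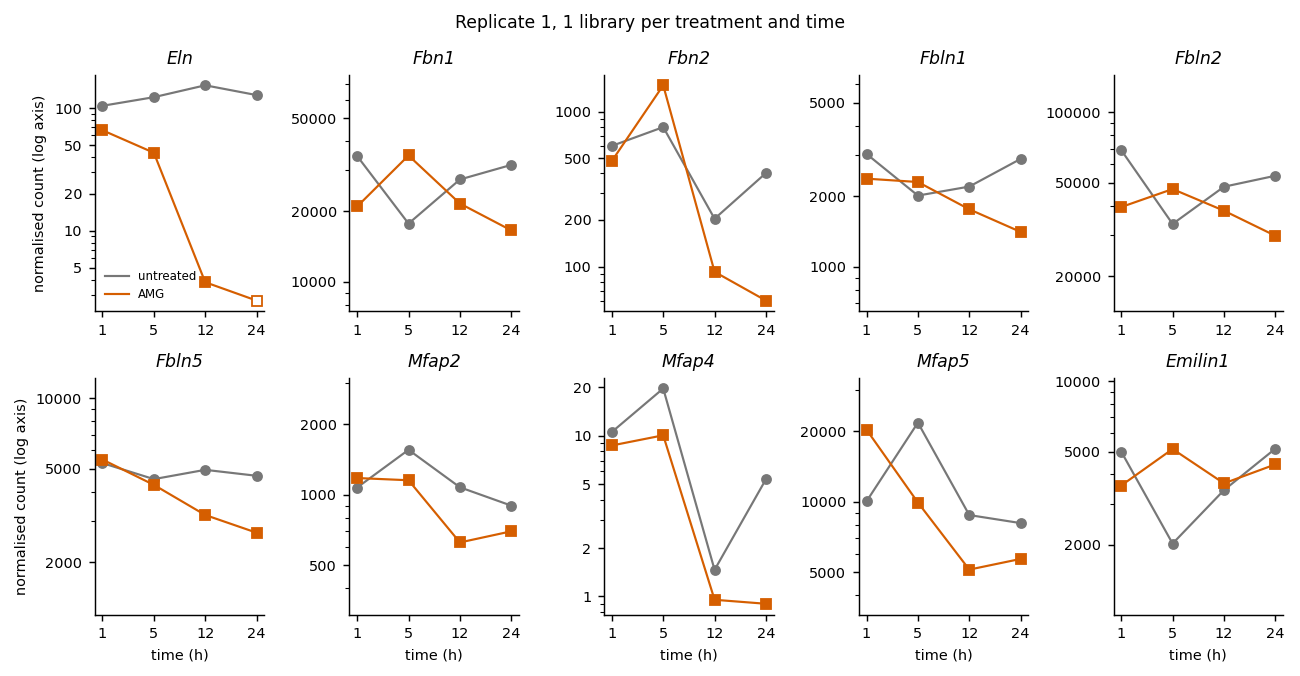
Normalised counts (log axis) of the 10 genes in replicate 1 at 1, 5, 12 and 24 h, untreated (grey circles) and AMG-treated (orange squares), 1 library per point, with the times evenly spaced. The treated Eln points lie below the untreated ones at all 4 times, with 0 at 24 h (open symbol, drawn at the floor of 3 reads), and the treated points of Fbn2 lie below the untreated ones at 12 and 24 h.

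Eln showed the widest difference of the members. Its untreated values were 105, 123, 154 and 128 normalised counts at 1, 5, 12 and 24 h. With AMG they were 66.1, 43.3, 3.81 and 0. The untreated series was nearly flat, spanning 1.47-fold, while the treated series went from 38 and 56 reads at 1 and 5 h to 4 reads at 12 h and 0 at 24 h.

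The ratio of treated to untreated Eln was 0.632 at 1 h (interval 0.426 to 0.917) and 0.352 at 5 h (0.245 to 0.505). At 12 h it was 0.0248 (0.00670 to 0.0645), from 4 against 210 reads. At 24 h, with 0 against 167 reads, Eln was 47.4-fold lower when the treated library was set at the floor of 3 reads. The counting interval of this ratio reached up to 0.0263, which allows a smaller difference than that. An antisense gene, Gm30003, overlaps Eln on the other strand, and the strand setting of the counting is not given in the sources used here. Genes on the other strand likewise overlap Fbn1 (Gm9913), Fbn2 (Gm26507) and Mfap4 (Mapk7).

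Fbn2 was the other member with a late difference over 2-fold at both times. It had 600, 793, 203 and 401 normalised counts untreated and 480, 1477, 92.4 and 60.3 with AMG. The treated series was above the untreated one at 5 h and below it at 12 and 24 h, and spanned 24.5-fold. The ratio was 0.454 at 12 h (0.357 to 0.575) and 0.150 at 24 h (0.115 to 0.194), which is 6.65-fold lower.

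Fbn1 had 34458, 17750, 27373 and 31593 normalised counts untreated and 20998, 34650, 21619 and 16602 with AMG. The untreated value was lowest at 5 h, where the treated one was highest. The ratio was 0.525 at 24 h (0.516 to 0.535). At the 2 late times the fibrillins therefore differed in size, with Fbn2 the further below its control.

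The fibulins were all lower at 24 h by similar amounts. Fbln1 stood at 2886 untreated and 1409 treated (ratio 0.488), Fbln2 at 53648 and 29754 (0.555), and Fbln5 at 4671 and 2671 (0.572). At 12 h only Fbln5 of the 3 was past 1.5-fold, with a ratio of 0.642. At 5 h the ratio of Fbln2 was 1.41 and that of Fbln1 was 1.14.

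Of the microfibril-associated genes, Mfap5 changed sides early. It had 10060, 21782, 8788 and 8120 normalised counts untreated and 20323, 9941, 5143 and 5712 with AMG. Its ratio was 2.02 at the earliest time and 0.456, 0.585 and 0.703 at the later ones. Mfap2 had ratios of 1.10, 0.742, 0.582 and 0.777 at the 4 times, and its log2 ratio changed sign with the length correction at 1 h (0.13 to -0.70) and at 5 h (-0.43 to 0.39).

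Mfap4 stayed near the floor, with 1.46 to 19.7 normalised counts untreated and 0.900 to 10.1 with AMG, so that no difference was detectable at this depth. Emilin1 had 5000, 2026, 3425 and 5147 untreated and 3584, 5130, 3660 and 4409 with AMG. It was higher with AMG at 5 h (ratio 2.53, interval 2.38 to 2.69), near its control at 12 h (1.07) and lower at 1 and 24 h (0.717 and 0.857).

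Fibroblast markers differed between treatments as well. The summed normalised counts of the 9 markers were 447877 to 626065 untreated and 350882 to 453651 treated at 5 h in replicates 2 to 4. With the block 6 of the 9 were called lower and 0 higher, beside 19.3% and 17.9% of all genes. In each of these 3 pairs 8 markers were lower and 1 was higher with AMG. The median log2 ratio over 12480 genes was -0.03, -0.003 and -0.03 in replicates 2, 3 and 4. In replicate 1 the sum was lower with AMG at 1, 12 and 24 h, with 365157 against 217865 at 24 h, and higher at 5 h, with 306019 against 313609. At 24 h 7 markers were lower and 2 were higher, namely Dcn (789 and 4316) and Pdgfra (2787 and 3822). The sum of 5 smooth muscle markers in replicate 1 was 146671 untreated and 154950 treated at 1 h, and 72942 and 18179 at 24 h. Among them Acta2 stood at 84107 untreated and 37413 treated at 12 h, and at 62221 and 15380 at 24 h. The part of these shifts in the results for the elastic fibre genes was not tested.

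The other genes of the pathway were taken as 24 further genes for microfibril and crosslinking proteins. At 5 h 19 of them were tested, and 0 were called in either direction with limma, with 3 at an unadjusted p under 0.05 and 2 called lower by DESeq2. Over all 13096 genes 3021 had an unadjusted p under 0.05, and DESeq2 called 579 lower. With the block 6 of the 19 were lower and 0 higher, beside 19.3% and 17.9% of all genes. The treated and untreated values did not overlap for 4 of the 19, where 28.7% of all genes tested did not overlap. The median log2 fold change of the 19 was -0.23, beside -0.33 for the 9 members.

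The 6 called genes were spread over the lists. Loxl3 and Loxl4 encode lysyl oxidases, which crosslink elastin and collagen. Loxl4 had 2009, 1916 and 1988 normalised counts untreated and 767, 1643 and 1024 treated, so that all treated libraries were lower than all untreated ones. Its log2 fold change was -0.86 (limma with the block, adjusted p = 0.00661), and that of Loxl3 was -0.51 (adjusted p = 0.0119).

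Adamtsl3 and Thsd4, members of the ADAMTS-like group that bind fibrillin microfibrils, had log2 fold changes of -0.85 (limma with the block, adjusted p = 0.000919) and -0.69 (adjusted p = 0.00493). Thsd4 had 360, 348 and 340 untreated and 234, 212 and 204 treated, so that the groups did not overlap. Emilin2, a relative of Emilin1, went the opposite way to it in replicates 2 to 4 with -0.56 (limma with the block, adjusted p = 0.0164). Its untreated values ran from 659 to 5957. In replicate 1 at 5 h the log2 ratio of Emilin2 was 0.50, the same direction as Emilin1. Hmcn1, a large fibulin relative, had -0.66 (limma with the block, adjusted p = 0.0254). With the length correction and the block 4 of the 19 were lower and 1 was higher, beside 15.9% and 18.2% of all genes. Thsd4 (limma, adjusted p = 0.0521) and Hmcn1 (adjusted p = 0.186) were then not called. In replicate 1 at 5 h the log2 ratios were 0.26 for Loxl3, 0.56 for Loxl4, 0.72 for Adamtsl3 and 1.48 for Thsd4. That of Hmcn1 was 0.48, and -0.49 after the length correction. With all 4 replicates and the block in limma 0 of the 19 were called, with or without the length correction.

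Of the proteases that can cleave elastin, 8 of 9 were tested and 1 was called without the block. This was Mmp9, gelatinase B, with 12.1, 15.3 and 29.7 normalised counts untreated and 1340, 200.035 and 2102 treated. Its log2 fold change was 5.47 ± 0.86 (limma, adjusted p = 0.0414). With the block Mmp9, Mmp12 and Ctsl were higher and Mmp2 was lower, where 17.9% and 19.3% of all genes were. Mmp12, the macrophage elastase, had 3.30, 4.18 and 11.4 untreated and 44.5, 24.6 and 102 treated, a log2 fold change of 2.92 (limma with the block, adjusted p = 0.00105). In replicate 1 at 5 h the log2 ratios were 3.76 for Mmp9, 2.31 for Mmp12, -0.45 for Ctsl and 0.34 for Mmp2.

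Of 9 receptor genes tested, 0 were called without the block. With it 1 was higher and 2 were lower, near the 17.9% and 19.3% of all genes. Itgb3, the beta chain of a vitronectin receptor that also binds fibrillin, had 406, 1536 and 614 normalised counts untreated and 1715, 5040 and 2576 treated. This gave a log2 fold change of 1.95 (limma with the block, adjusted p = 4.3e-06). Itga8 was lower with -0.87 (adjusted p = 0.00126) and Itgb5 with -0.31 (adjusted p = 0.0420). Of 9 TGF-beta targets tested, Col1a1 was lower with the block (log2 fold change -0.63, limma, adjusted p = 0.0109) and 0 were higher. In replicate 1 at 5 h the log2 ratios were 2.86 for Itgb3, 2.27 for Itga8, -0.04 for Itgb5 and 0.38 for Col1a1.

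The late time points of replicate 1 showed the same lists without a test. At 24 h 11 of 20 further microfibril and crosslinking genes were lower by over 1.5-fold and 1 was higher. Over all genes these shares were 15.3% and 12.8%. All 4 genes of the list of other fibulins and hemicentin (Efemp1, Efemp2, Fbln7 and Hmcn1) were lower, with log2 ratios from -0.60 to -2.85. Of the lysyl oxidases 3 of 5 were lower, with Loxl4 at -0.70. The latent TGF-beta binding proteins, which share repeats with the fibrillins, had 0 of 4 past 1.5-fold in either direction. Of the 9 TGF-beta targets 5 were lower and 0 were higher.

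Of the elastin-degrading proteases 4 of 8 were higher and 1 was lower at 24 h, beside 12.8% and 15.3% of all genes. Mmp9 had 90.4 normalised counts untreated and 1868 with AMG, and Mmp12 had 7.66 and 236. These 4 proteases were counted for being higher, so their side of the control was fixed by the count. The 9 members that passed the filter lay below the control, as the plot of late ratios shows. Related genes lay on both sides. Of the 20 further microfibril and crosslinking genes 17 had log2 ratios below 0, while Adamtsl5 (0.73), Ltbp1 (0.49) and Ltbp4 (0.003) did not. Over all 13498 genes 6532 had log2 ratios below 0. Of the 8 proteases 2 were below 0, namely Ctss (-0.86) and Mmp2 (-0.07). Mmp14 (0.19) and Ctsb (0.46) were above 0 by less than 1.5-fold. Each ratio rests on 1 library per treatment.

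**Figure D4:**
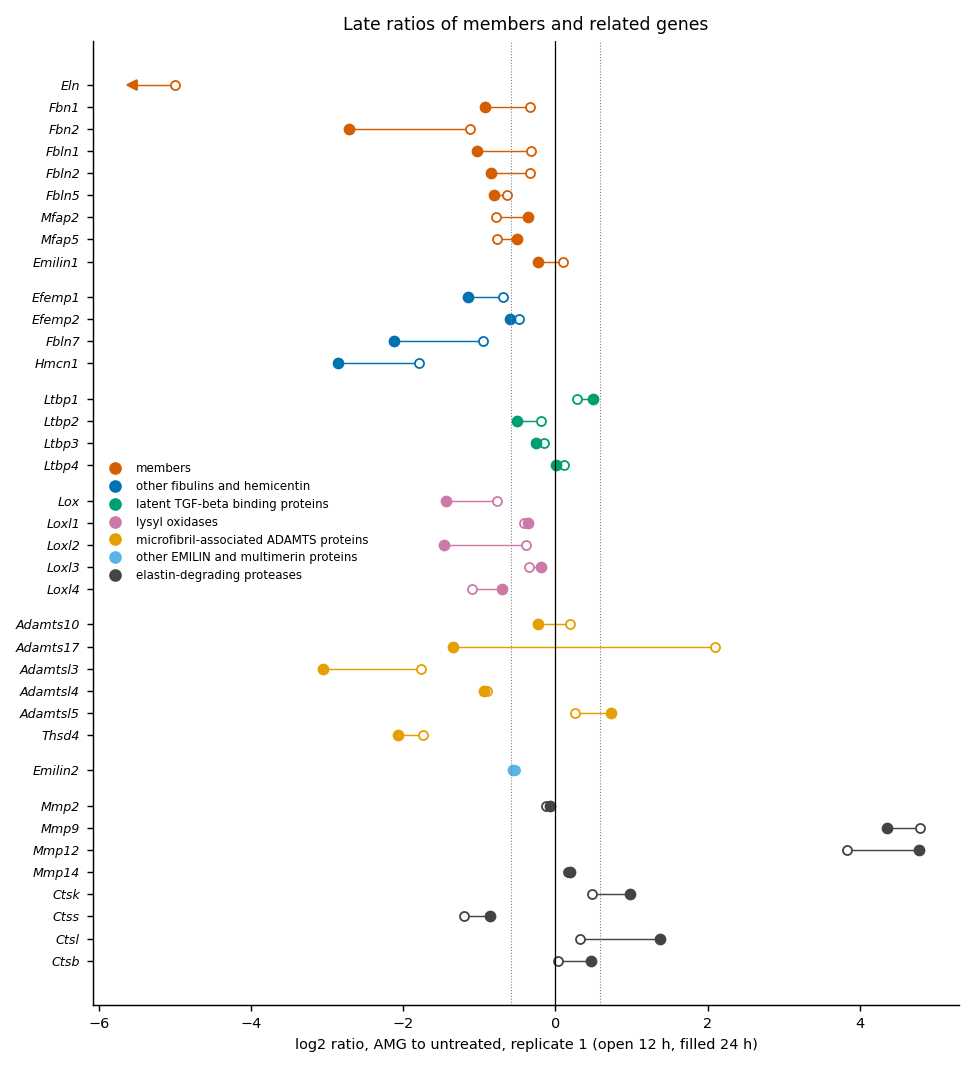
Log2 ratios of AMG-treated to untreated cells in replicate 1 at 12 h (open) and 24 h (filled) for the 9 members and for related genes that passed the filter, grouped by list, with dotted lines at 1.5-fold. The 24 h points of the 9 members lie below 0, Mmp9 and Mmp12 lie above 4, and the triangle of Eln marks a bound of at least 47.4-fold lower.

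The genes whose levels went most closely with Eln and Fbn1 were sought among 9809 genes by the lower of the Pearson correlations over the 8 libraries of replicate 1 and the 6 libraries of replicates 2 to 4. The libraries share treatment, depth and time, so the values are descriptions. For Eln these were Wfdc1 (r = 0.85 and 0.90), Pcp4l1 (0.96 and 0.84), Rab3b (0.93 and 0.84), Chrdl1 (0.84 and 0.85) and Zbtb7c (0.90 and 0.81). Pcp4l1 stood at 5024 normalised counts untreated and 609 with AMG at 24 h, and Chrdl1 at 394 and 81.9. For Fbn1 they were Plekhg2 (0.91 and 0.91), Rin3 (0.90 and 0.996), Lrrc32 (0.90 and 0.94), Tacc1 (0.90 and 0.89) and Zcchc11 (0.88 and 0.93). All 10 genes were lower with AMG at 24 h, by 0.41 to 3.04 on the log2 scale. The 24 h libraries, where Eln and Fbn1 were lower, were among those used to pick these genes. Their direction at 24 h is therefore largely a product of the choice and not a separate result.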

How the data were processed

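RNA was sequenced from 14 libraries of wounded mouse fibroblasts. They come from an earlier dataset that the study re-used for its 5 h differentially expressed genes. Stranded poly(A) libraries are given in the study's methods, which describe its own sequencing. Per the labels' processing notes and those methods, reads were aligned to mm10 with TopHat2 2.0.13 and counted per gene with HTSeq 0.5.3p3. The authors deposited, for each gene, a normalised signal, which is the read count divided by a size factor. Replicate 1 (8 libraries) and replicates 2 to 4 (6 libraries) were scaled in 2 tables, so levels were not compared across tables. The annotation release and strand setting are not given in the sources used here. In every library 100% of the values were whole multiples of 1 read (tolerance 0.1), and 0 rows named no gene. The count test on these whole reads (edgeR 4.0.16, without the block) called 98 genes higher and 25 lower.

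At 5 h, 3 treated were compared with 3 untreated libraries on log2(value + 1) with limma 3.58.1 in R 4.3.3 (trend, mean of at least 10, Benjamini-Hochberg adjustment, called under 0.05), so folds of low genes are understated. Replicate numbers were checked as pairs: deviations from the group means correlated with r = 0.65, 0.76 and 0.70 for equal numbers and from -0.59 to 0.12 for others. The pairing comes from the data and not from the labels. The length correction subtracted, library by library, a lowess curve (span 0.3) on log2 transcript length. The curve was fitted to each library's deviation from the gene's mean in its table. Lengths were from GENCODE M21 and known for 95.3% of tested genes. Replicate 1 has 1 library per group and was described by ratios with exact 95% counting intervals, a 1.5-fold limit and a floor of 3 reads. Fits were tested on simulated data. Alternatives were other pseudocounts, filters, scalings, DESeq2 1.42.0, edgeR, the replicate block, 4 replicates and leaving out libraries. The members, lists and tests were chosen with earlier results of these data known. Named genes were the members, list genes called at 5 h with or without the block, whole lists, and the 5 genes most like Eln and Fbn1 with a mean of at least 100.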

Additional observations from a re-analysis of the deposited data

Results flagged for a closer look

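The log2 ratios of the 4 replicates at 5 h were searched for a value far from the other 3, in 10 groups of which chance marks about 1 in 20. In Fbn2 the ratio of replicate 1 (0.90) stood apart from -0.56, -0.52 and -0.48, with a gap of 0.945 of the whole range, above Dixon's critical value. In Mfap5 the ratio of replicate 1 (-1.13) stood apart from 0.14, 0.01 and 0.12, with a gap of 0.894 of the range, also above it. After the length correction the gap was 0.264 of the range in Fbn2, below the critical value, and 0.911 in Mfap5, and that of Fbln5 was 0.865, with -0.54 in replicate 1 and -0.05, -0.12 and -0.06 in the others. Replicate 1 was scaled in another table than the other replicates.

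Emilin1 was higher with AMG in all 4 replicates at 5 h but lower in replicate 1 at 1 h, with a log2 ratio of -0.48, and at 24 h, with -0.22. The difference between the times was not tested, since 1 and 24 h have 1 library per treatment.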

How the results depend on the processing

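Without the block, 127 genes were called higher and 35 lower at 5 h. The counts (higher, lower) were 2345 and 2527 with the replicate block, 2434 and 2470 with edgeR and the block, 2269 and 1979 with the length correction and the block, and 861 and 579 with DESeq2. Chosen after seeing the data, the block gave 724 and 695 without pair 2, 3269 and 3531 without pair 3, and 1346 and 1328 without pair 4, and 4 replicates with the block gave 341 and 174, or 951 and 671 with the length correction. Leaving out 1 library gave 1 to 1146 higher and 0 to 1054 lower, both highest without AMG-treated replicate 3.

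Members called lower at 5 h numbered 0 in the test without the block, 5 with the replicate block, 6 with edgeR and the block, 2 with the length correction and the block, and 1, 5 and 2 with the block without pairs 2, 3 and 4. The count called higher was 0, or 1 with the block in limma and edgeR, without pair 3, and with the length correction in 3 or 4 replicates. On leaving out any 1 library, 0 members were called in either direction. The other microfibril and crosslinking genes called lower numbered 0, with 6 in the block, 7 in edgeR with the block, 4 with the length correction and the block (1 higher), 2 in DESeq2, 2, 11 and 5 without pairs 2, 3 and 4, and 0 to 3 on leaving out 1 library. The block changed no other list's call than those given in the report.

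The sign of the 5 h fold change turned for Fbn2 without AMG-treated replicate 4 (0.17), for Mfap2 without it (0.14) and without Untreated replicate 3 (0.13), and for Mfap5 without AMG-treated replicate 3 (-0.18), without Untreated replicate 4 (-0.19), and with 4 replicates in edgeR (-0.21), limma (-0.21) and limma with the length correction (-0.22). Over single libraries left out Fbn2 ranged from -1.24 to 0.17, Mfap2 from -0.55 to 0.14 and Mfap5 from -0.19 to 0.40. None of these values passed the test.

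In replicate 1 a limit of 2-fold left 0 members lower at 1 h, 1 higher at 5 h, 2 lower at 12 h and 3 lower at 24 h. The length correction left 1 lower at 1 h and 1 higher at 5 h, and turned the sign of Fbn2 at 1 h (0.20). The causes were not tested. Depth limits Eln and Mfap4 most, with as few as 12 and 0 reads at 5 h.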
